A study of Homo sapiens with 2 samples.

Results

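Cadherins, protocadherins and the other genes of desmosomes and adherens junctions were examined in SUDHL6 and HT, a pair of established human lines of diffuse large B cell lymphoma. Each line was measured untreated on 1 Affymetrix exon array of total RNA, in medium with serum and antibiotics. The series title places the arrays within work on a compound that inhibits Polycomb repressive complex 2 (PRC2), and these cells received none of it. The members were taken by symbol: the numbered CDH and the PCDH genes, the desmogleins (DSG) and desmocollins (DSC), DSP, JUP, PKP1 to PKP4, CTNNA1, CTNNA2, CTNNB1 and CTNND1, wherever the platform annotation of a probe set named exactly 1 gene. This gave 59 genes, each with 1 probe set, of 14232 genes with 1 value. The probe sets of CTNND1 and of most PCDHA and PCDHB genes that the annotation shares between genes are described apart.

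Cadherins are calcium-dependent membrane proteins that bind their like on the neighbouring cell. Classical cadherins join the actin skeleton through beta-catenin and alpha-catenin in adherens junctions. Desmogleins and desmocollins join keratin filaments through plakoglobin, plakophilins and desmoplakin in desmosomes, the junctions that hold epidermis and heart muscle together. Protocadherins are a larger, mostly neuronal family that lacks the catenin-binding tail of classical cadherins. Lymphocytes grow without desmosomes, and beta-catenin also acts in them as the nuclear partner of TCF and LEF factors.

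The values are log2 expression values after RMA, which normalizes arrays and combines the probes of a probe set. The 95th percentile of 225 olfactory receptor genes in each line, 3.81 in SUDHL6, against 4.11 in HT, served as the dim level, and a gene reached it where its higher value did so in the line that held it. A gene was counted as different where SUDHL6 minus HT came to 1 or more, or to -1 or less, and the dim level was reached. With 1 array per line there is no spread between replicates, no test and no p-value, so the number of arrays limits the precision of every value. As a guide to the scatter of dim probe sets, the differences of the 225 olfactory receptor genes lay between -1.03 and 1.26 in their central 95% and between -1.96 and 4.61 in full. All 7 measured B cell markers lay above the dim level of both lines, among them CD22 (9.13 in SUDHL6, against 8.55 in HT) and CD79A (6.47 in SUDHL6, against 6.58 in HT), while MS4A1, the CD20 gene, was the 1 marker of the 7 counted as different (11.33 in SUDHL6, against 8.75 in HT, 6.01-fold higher in SUDHL6). Of T cell and myeloid markers, 0 of 6 reached the dim level.

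Most of the family was dim in both lines, and 3 genes stood apart. DSG1 and DSG2, which encode desmosomal cadherins, were higher in HT, and PCDH9, a non-clustered protocadherin gene, was higher in SUDHL6. Of the 59 genes, 13 (22.0%) reached the dim level, against 66.1% of all genes. The 3 counted as different make 5.08% of the members, against 8.12% of all genes. Split by direction, 1 of 59 was higher in SUDHL6, where the share over all genes is 3.5%, and 2 of 59 were higher in HT, where it is 4.62%. Neither share exceeded that of all genes. Of the 13 that reached the dim level, 3 (23.1%) were counted, against 12.3% of all such genes, but a gene could enter these 13 through the line in which it was high. The median difference over all 59 was 0.00, beside -0.04 over all genes. Outside the 3, the differences ran from -0.51 to 0.99.

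**Figure D1:**
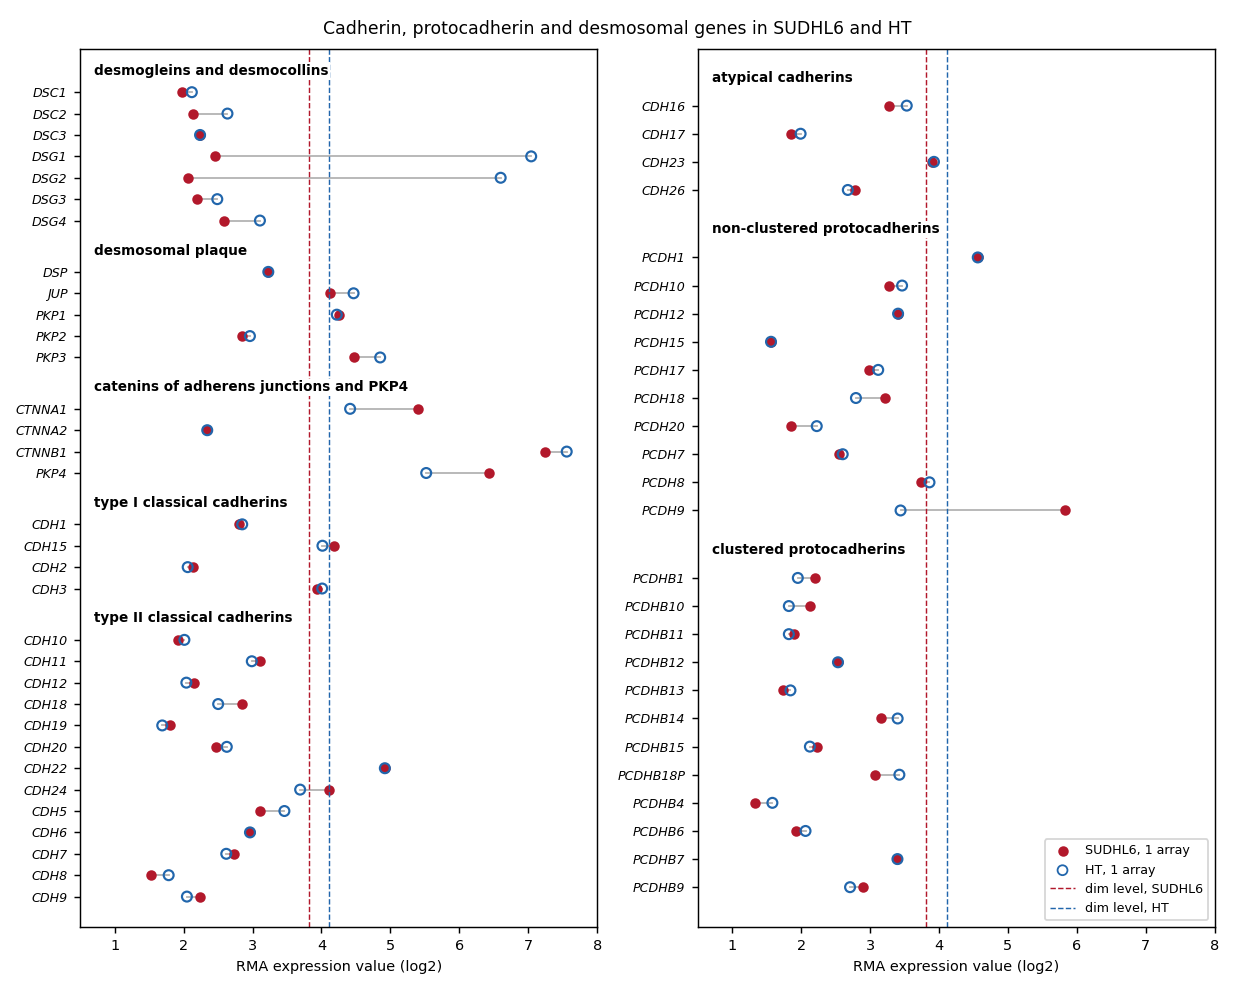
Expression values of the 59 genes, 1 row per gene, grouped by role, on a log2 axis. Filled points are SUDHL6 and open points HT, 1 array each, and dashed lines mark the dim level of each line (3.81 in SUDHL6, against 4.11 in HT). Only DSG1, DSG2 and PCDH9 cross the dim level with a wide gap between the lines.

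The start regions of DSG1, DSG2, DSG3 and PCDH9 are shown because DSG1 and DSG2 were high in the same line, DSG3 lies between them on chromosome 18 and was dim in both, and PCDH9 was the member high in the other line. Each is the 250 bases before the annotated gene start, 5′ to 3′ on the gene's own strand, from RefSeq (GRCh38.p14). They span chr18:31317910-31318159 for DSG1, chr18:31497927-31498176 for DSG2 and chr18:31447491-31447740 for DSG3, all on the plus strand, and chr13:67230337-67230586 on the minus strand for PCDH9. Capitals mark the E-box pattern CANNTG and the GC box GGGCGG on either strand.
DSG1: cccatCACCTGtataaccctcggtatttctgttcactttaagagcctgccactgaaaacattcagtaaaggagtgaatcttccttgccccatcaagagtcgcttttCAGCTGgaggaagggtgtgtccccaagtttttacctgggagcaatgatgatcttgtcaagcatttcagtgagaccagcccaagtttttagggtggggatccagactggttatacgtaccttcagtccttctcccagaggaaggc
DSG2: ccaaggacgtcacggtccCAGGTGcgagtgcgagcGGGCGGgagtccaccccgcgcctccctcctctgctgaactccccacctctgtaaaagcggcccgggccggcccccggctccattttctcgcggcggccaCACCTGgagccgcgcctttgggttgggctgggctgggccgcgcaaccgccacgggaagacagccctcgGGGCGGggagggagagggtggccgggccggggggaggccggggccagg
DSG3: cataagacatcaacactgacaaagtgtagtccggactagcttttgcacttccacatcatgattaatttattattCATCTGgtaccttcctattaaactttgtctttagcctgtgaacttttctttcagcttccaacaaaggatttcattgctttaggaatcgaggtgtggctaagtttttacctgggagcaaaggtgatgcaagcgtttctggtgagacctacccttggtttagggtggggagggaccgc
PCDH9: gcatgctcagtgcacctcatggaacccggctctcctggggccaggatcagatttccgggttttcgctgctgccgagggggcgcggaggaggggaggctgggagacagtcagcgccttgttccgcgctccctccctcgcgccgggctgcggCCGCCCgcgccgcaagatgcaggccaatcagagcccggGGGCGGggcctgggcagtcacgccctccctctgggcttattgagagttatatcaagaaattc
The start regions of the 2 desmogleins that were high in HT were of different kinds. DSG2 had 26 CG pairs, as many or more than 82.3% of the 35116 start regions in the table, while DSG1 had 3, DSG3 had 4 and PCDH9 had 20. The median over the table was 11. DSG2 and PCDH9 each had 2 GC boxes, a pattern found in 42.6% of all start regions, and DSG1 and DSG3 had 0. The E-box letters CANNTG, found in 61.8% of start regions, occurred 2 times in DSG1, 2 times in DSG2, 1 time in DSG3 and 0 times in PCDH9. Its form CACCTG, read on either strand and itself a CANNTG, occurred 2 times in DSG2 and 1 time in DSG1, and is found in 17.5% of start regions. TATAAA, found in 10.7%, was in none of these 4 windows.

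Among the desmosomal cadherins with a listed start region, the longest run of letters in common was between DSG1 and DSG3, 20 bases long. It is printed because it joins a gene that was high in HT to a nearby desmoglein gene that was not.
Shared run: aagtttttacctgggagcaa
It begins 120 bases before the start of DSG1 and 78 bases before that of DSG3, and 2 of the 35116 start regions hold it. No start region was listed for DSG4, which lies between DSG1 and DSG3, so DSG4 was not searched. The other pairs of desmosomal cadherin genes with listed start regions shared at most 9 bases. Over the 41 members listed in the table, with 61 start regions, CANNTG was found in 54.1%, CACCTG in 14.8%, GGGCGG in 31.1% and TATAAA in 8.2%. These matches describe letters only, and no binding was measured.

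The desmosomal cadherins held the widest gaps of the family. DSG1, the desmoglein of the upper epidermis and the autoantigen of pemphigus foliaceus, stood at 2.45 in SUDHL6, against 7.04 in HT, a difference of -4.59. SUDHL6 lay below the dim level and HT well above it, so HT was at least 9.38-fold higher. DSG2, the desmoglein of simple epithelia and heart muscle, stood at 2.06 in SUDHL6, against 6.60 in HT, a difference of -4.53, or at least 6.90-fold higher in HT. By the difference alone, DSG1 was the 12th and DSG2 the 13th of all 14232 genes on the HT side, and 0 of the 225 olfactory receptor genes differed as far in that direction. On the SUDHL6 side, the largest olfactory receptor difference was 4.61, wider than either gap.

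The other 5 desmosomal cadherin genes were dim in both lines. DSG3, the desmoglein of the lower epidermis and the autoantigen of pemphigus vulgaris, stood at 2.19 in SUDHL6, against 2.49 in HT. DSG4, the desmoglein of the hair shaft, stood at 2.59 in SUDHL6, against 3.11 in HT. DSC2, the broadly expressed desmocollin, stood at 2.14 in SUDHL6, against 2.64 in HT. None of these gaps reached 1. DSC1 (1.98 in SUDHL6, against 2.12 in HT) and DSC3 (2.24 in each line) encode the other desmocollins, which pair with desmogleins across the junction in epidermis. The 2 desmogleins high in HT came without a desmocollin above the dim level in either line. Such a dim value leaves unknown whether the gene was transcribed.

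The 7 genes form 1 cluster on chromosome 18, in the order DSC3, DSC2, DSC1, DSG1, DSG4, DSG3 and DSG2. DSG1 and DSG2 are not next to each other, and the dim DSG4 and DSG3 lie between them. Of the 7 genes, 6 were lower in SUDHL6 and DSC3 had the same value in both. The nearest 10 genes with a value on each side, other members of the family left out, held differences in both directions. Of these 20 neighbours, 9 reached the dim level, 3 were counted as higher in SUDHL6 and 3 as higher in HT, with a median of -0.29. The 6 counted of 20 compare with 8.12% of all genes, and the 6 of the 9 that reached the dim level with 12.3% of all such genes. The median was 0.38 over these 9, 0.03 with 5 neighbours on each side, and 0.08 over another set, the nearest 10 genes on each side that reached the dim level. B4GALT6, a galactosyltransferase gene of glycolipid synthesis, comes second after the cluster and stood at 4.79 in SUDHL6, against 6.45 in HT, 3.17-fold higher in HT. IMPACT, a regulator of the stress kinase GCN2, stood at 3.10 in SUDHL6, against 7.11 in HT, at least 9.80-fold higher in HT. TTC39C stood at 5.24 in SUDHL6, against 2.28 in HT, at least 2.18-fold higher in SUDHL6. The 3 neighbours higher in SUDHL6 (TTC39C, ZNF521 and AQP4) and IMPACT lie on the DSC3 side of the cluster, and B4GALT6 and MAPRE2, which were higher in HT, on the DSG2 side. The median difference was -0.0033 on the DSC3 side and -0.33 on the DSG2 side.

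**Figure D2:**
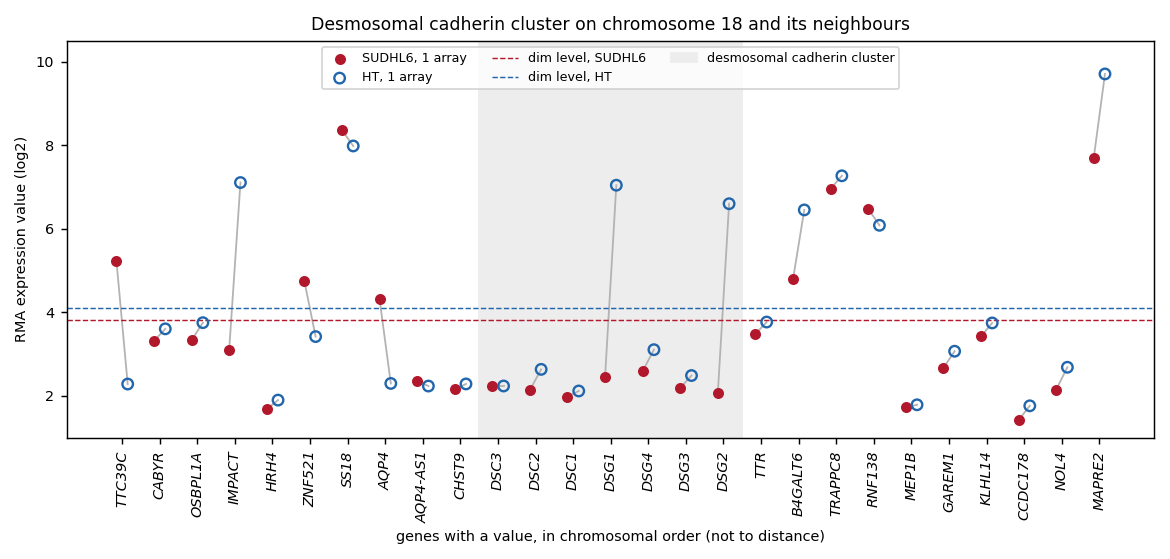
Expression values (log2) of the 7 desmosomal cadherin genes (grey band) and the nearest 10 genes with a value on each side, other members left out. Genes are in chromosomal order and not to distance. Filled points are SUDHL6 and open points HT, 1 array each, and dashed lines are the dim levels. DSG1 and DSG2 are near the bottom in SUDHL6 (2.45 and 2.06) and at 7.04 and 6.60 in HT, with DSG4 and DSG3 dim between them.

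The genes of the desmosomal plaque, which lies under the membrane, differed by at most 0.37 between the lines. DSP encodes desmoplakin, the link to keratin filaments, and held the same dim value, 3.23, in each line. JUP encodes plakoglobin, which binds the tails of desmogleins and also of classical cadherins, and stood at 4.12 in SUDHL6, against 4.47 in HT. PKP3, a plakophilin gene of epithelia, stood at 4.48 in SUDHL6, against 4.85 in HT. PKP1, the plakophilin gene of the upper epidermis, stood at 4.26 in SUDHL6, against 4.22 in HT, and PKP2, that of heart muscle, was dim at 2.84 in SUDHL6, against 2.96 in HT. Of these 5, JUP, PKP1 and PKP3 reached the dim level, by at most 0.74 on the log2 scale. The median difference was -0.12.

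Markers of epithelium did not stand apart in HT as DSG1 and DSG2 did. Of 13 epithelial and keratinocyte markers with a value, 6 reached the dim level of both lines and 0 were counted as different, with a median difference of -0.09. The markers ran from 2.27 to 8.27 in SUDHL6 and from 1.93 to 8.12 in HT, and the keratin gene KRT8 was the highest in each line. KRT19 stood at 4.48 in SUDHL6, against 4.53 in HT, and CDSN at 4.73 in SUDHL6, against 4.46 in HT. KRT14, a keratin of basal keratinocytes, stood at 5.42 in SUDHL6, against 6.11 in HT, and SFN, which encodes 14-3-3 sigma, at 3.89 in SUDHL6, against 4.61 in HT. The keratin gene KRT10 stood at 4.25 in SUDHL6, against 4.95 in HT. SFN, KRT10 and KRT14 were 1.64-, 1.62- and 1.61-fold higher in HT. Of the 13 markers, 8 had a higher value in HT and 5 in SUDHL6. The epithelial surface gene EPCAM was dim at 2.27 in SUDHL6, against 1.93 in HT, as were KRT1 (3.29 in SUDHL6, against 2.94 in HT) and IVL (3.30 in SUDHL6, against 3.41 in HT), both of the upper epidermis. Of 10 fibroblast and endothelial markers, LUM (2.38 in SUDHL6, against 6.22 in HT) and DCN (2.09 in SUDHL6, against 5.05 in HT) were counted as higher in HT, 0 as higher in SUDHL6, and COL1A1 was at 4.47 in SUDHL6, against 4.44 in HT. Beside 8.12% of all genes, 20% of these 10 markers and 0% of the 13 epithelial and keratinocyte markers were counted as different. The part of other cell types in the HT values of DSG1 and DSG2 was not tested beyond these levels.

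Among the catenins, 2 genes sat just under the threshold on the SUDHL6 side. CTNNA1 encodes alpha-E-catenin, which ties the cadherin and beta-catenin complex to actin, and stood at 5.41 in SUDHL6, against 4.42 in HT, a difference of 0.99 and 1.99-fold. PKP4, a relative of p120-catenin found at cell junctions, stood at 6.43 in SUDHL6, against 5.52 in HT, a difference of 0.91 and 1.88-fold. After quantile normalization or loess CTNNA1 passed 1 (1.02 in each), and after loess PKP4 did as well (1.02). A probe set shared by LRRTM2, a gene that lies within CTNNA1, and CTNNA1 was dim at 3.31 in SUDHL6, against 3.19 in HT and did not show this gap. CTNNB1, which encodes beta-catenin, stood at 7.24 in SUDHL6, against 7.56 in HT, 1.24-fold higher in HT. The neuronal alpha-catenin gene CTNNA2 held the same dim value, 2.34, in each line. The only probe set that names CTNND1, the gene of p120-catenin, also names its neighbour TMX2. It stood at 5.38 in SUDHL6, against 6.02 in HT, a difference of -0.65 that cannot be assigned to either gene. CTNNA1 and CTNNB1 were thus above the dim level in both lines, with differences of opposite sign.

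No classical cadherin gene was counted as different. CDH1, the E-cadherin gene of epithelia, was dim at 2.80 in SUDHL6, against 2.85 in HT, and CDH2, the N-cadherin gene of nerve and muscle, was dim at 2.13 in SUDHL6, against 2.06 in HT. CDH3, the P-cadherin gene, was at 3.93 in SUDHL6, 0.12 above that line's dim level, and at 4.01 in HT, 0.10 below. CDH15, the M-cadherin gene of muscle, stood at 4.19 in SUDHL6, against 4.01 in HT. The 4 type I cadherins with a value had a median difference of 0.01 and stayed within 0.17 of 0.

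Of 13 type II cadherins, 2 reached the dim level, CDH22 and CDH24. CDH22 held the same value, 4.92, in each line, and CDH24 stood at 4.11 in SUDHL6, against 3.69 in HT. CDH5, the VE-cadherin gene of endothelium, was dim at 3.10 in SUDHL6, against 3.46 in HT, and so was CDH11, a cadherin gene of mesenchyme, at 3.11 in SUDHL6, against 2.99 in HT. The group ran from 1.53 to 4.92 in SUDHL6 and from 1.69 to 4.92 in HT, with differences between -0.36 and 0.42 and a median of 0.11. The atypical cadherins CDH16, CDH17, CDH23 and CDH26 had differences between -0.25 and 0.10. CDH23, a component of the tip links of hair cells in the inner ear, stood at 3.90 in SUDHL6, 0.09 above that line's dim level. In HT, CDH23 was at 3.93, 0.19 below. CDH16, the kidney cadherin gene, stood at 3.28 in SUDHL6, against 3.53 in HT. CDH26 was dim at 2.78 in SUDHL6, against 2.68 in HT. Over all 21 CDH genes, 10 had a higher value in SUDHL6, 9 a higher value in HT and 2 the same value.

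PCDH9 was the only member counted as higher in SUDHL6. It is a non-clustered protocadherin gene of the delta group, best known from the brain, and stood at 5.83 in SUDHL6, against 3.44 in HT, a difference of 2.39. HT lay below its dim level, so SUDHL6 was at least 3.29-fold higher. By the difference alone it was the 119th of all 14232 genes on the SUDHL6 side, and 1 of the 225 olfactory receptor genes differed as far in that direction. The call ended with a stricter dim level of 5.99 in SUDHL6, against 5.93 in HT, taken from 34 keratin-associated protein genes, which the PCDH9 value did not reach.

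The 9 other non-clustered protocadherins differed by at most 0.43. PCDH1, a protocadherin gene of airway epithelium, reached the dim level, at 4.57 in SUDHL6, against 4.56 in HT. PCDH8 stood at 3.74 in SUDHL6, against 3.86 in HT. The other 7 ran from 1.56 to 3.41 in SUDHL6 and from 1.56 to 3.46 in HT. PCDH8, PCDH17 and PCDH20 lie on chromosome 13 with PCDH9, and all 3 had slightly lower values in SUDHL6, by 0.12, 0.13 and 0.37. They did not share the gap of PCDH9.

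The neighbours of PCDH9 were chosen after its value was seen. Of the nearest 10 genes with a value on each side, other protocadherins left out, 2 were counted as higher in SUDHL6 and 2 as higher in HT, with a median of -0.07. The 2 of 20 higher in SUDHL6 compare with 3.5% of all genes, and the 2 of 20 higher in HT with 4.62%. Of the 20, 14 reached the dim level, and 12.3% of all such genes were counted in either direction. LMO7 encodes a protein that binds afadin and alpha-actinin at adherens junctions, and stood at 7.96 in SUDHL6, against 4.52 in HT, 10.9-fold higher in SUDHL6. TBC1D4, a regulator of vesicle traffic, stood at 5.52 in SUDHL6, against 3.33 in HT, at least 2.65-fold higher in SUDHL6. NEK3 (4.71 in SUDHL6, against 7.21 in HT) and SUGT1 (7.59 in SUDHL6, against 8.77 in HT) were higher in HT.

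The clustered protocadherins, whose alternative isoforms give neurons distinct surface identities, were dim wherever they were measured. No probe set was named for a PCDHG gene, so these values cover PCDHA and PCDHB genes only. The 12 PCDHB genes with a probe set of their own, the pseudogene PCDHB18P among them, ran from 1.33 to 3.40 in SUDHL6 and from 1.58 to 3.42 in HT, and 0 reached the dim level. Of the 12, 5 had a higher value in SUDHL6, 5 a higher value in HT and 2 the same value, and the differences lay between -0.35 and 0.30. PCDHB14 stood at 3.16 in SUDHL6, against 3.40 in HT, PCDHB7 at 3.40 in each line and PCDHB18P at 3.08 in SUDHL6, against 3.42 in HT. A further 7 probe sets are each shared by 2 to 15 clustered protocadherin genes. The one naming 15 PCDHA genes stood at 3.80 in SUDHL6, against 3.67 in HT. All 7 lay below the dim level of both lines, from 1.34 to 3.80 in SUDHL6 and from 1.81 to 3.67 in HT, with differences between -0.49 and 0.57. The clustered genes resemble each other in sequence, so probes may bind more than 1 of them. The 20 genes on either side of these PCDHB genes on chromosome 5, members left out, had a median difference of -0.13. Of them, 17 lay at or above the dim level. NDFIP1 was the 1 counted as different, as higher in HT, beside 8.12% of all genes.

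Exactly the same value on both arrays was found for 9 of the 59 genes (15.3%), against 3.8% of all genes. They were CDH6, CDH22, CTNNA2, DSC3, DSP, PCDH12, PCDH15, PCDHB7 and PCDHB12. Of the 46 members that did not reach the dim level, 8 (17.4%) held equal values, against 7.31% of all such genes, and CDH22 was the 1 above it, where the share over all genes is 2%. A difference of 0 in these genes is thus a tie of the deposited values, and the cause was not tested.

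Partners and regulators outside the family, listed by role, were read beside it. Of the 70 measured, 43 lay at or above the dim level, 5 were counted as higher in SUDHL6 and 3 as higher in HT. These 8 make 11.4%, beside 8.12% of all genes. All 8 are among the 43 at or above the dim level, where 12.3% of all such genes were counted. The same shares over all genes apply to each list below.

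Among cytoplasmic partners and other junction genes, 3 of 21 were higher in SUDHL6 and 1 in HT, together 19.0%, beside 8.12% of all genes. Most of these calls were narrow. NECTIN1 and LIMA1 only just passed the threshold, with differences of 1.01 and -1.01, and SORBS2 lay just above the SUDHL6 dim level of 3.81. VCL encodes vinculin, which binds alpha-catenin under tension, and stood at 6.67 in SUDHL6, against 4.79 in HT, 3.68-fold higher in SUDHL6. NECTIN1, a nectin that joins adherens junctions through afadin, stood at 5.07 in SUDHL6, against 4.06 in HT, at least 1.94-fold higher in SUDHL6. SORBS2, an actin adaptor gene, stood at 3.91 in SUDHL6, against 2.47 in HT and allows no fold, since it was below the dim level of HT. LIMA1 encodes an actin cross-linking protein that binds alpha-catenin and stood at 6.66 in SUDHL6, against 7.67 in HT, 2.01-fold higher in HT. Besides these, CTNNAL1, a relative of alpha-catenin, stood at 6.46 in SUDHL6, against 5.68 in HT, and AFDN, the afadin gene, at 6.49 in SUDHL6, against 5.85 in HT. CTNNAL1 and AFDN were picked once their values were known. The desmosome-associated membrane gene PERP and the plakin gene PPL were dim in both lines, PERP at 2.12 in SUDHL6, against 2.20 in HT, and PPL at 3.48 in SUDHL6, against 3.59 in HT.

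In the beta-catenin arm, 1 of 11 genes was higher in each line, together 18.2%, beside 8.12% of all genes. LEF1, a nuclear partner of beta-catenin, stood at 7.48 in SUDHL6, against 4.11 in HT, at least 10.3-fold higher in SUDHL6. LRP6, a co-receptor of Wnt, stood at 1.90 in SUDHL6, against 5.20 in HT, at least 2.62-fold higher in HT. GSK3B, the kinase that marks beta-catenin for destruction, stood at 8.18 in SUDHL6, against 8.40 in HT, and APC, its scaffold, at 5.38 in SUDHL6, against 5.74 in HT. AXIN2, a target gene of the pathway, was at 4.20 in SUDHL6, against 4.29 in HT.

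Of 15 E-box binding and epithelial regulators, 1 was higher in each line, together 13.3%, beside 8.12% of all genes. ZEB2, a repressor of CDH1 in epithelial cells, stood at 6.76 in SUDHL6, against 3.42 in HT, at least 6.27-fold higher in SUDHL6. TCF4, an E protein that also binds E-boxes, stood at 2.95 in SUDHL6, against 8.62 in HT, at least 28.0-fold higher in HT. ZEB1, the relative of ZEB2, stood at 6.57 in SUDHL6, against 6.80 in HT. The epithelial regulators GRHL2 (2.73) and ESRP1 (2.34) each held the same dim value in both lines. Whether any of these factors bears on DSG1, DSG2 or PCDH9 was not tested.

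The proteases and other turnover genes gave 0 of 6 counted as different, with CBLL1, a ubiquitin ligase gene of E-cadherin, at 8.79 in SUDHL6, against 8.49 in HT and the protease gene ADAM15 at 4.88 in SUDHL6, against 5.04 in HT. The other cadherin superfamily genes, which lie outside the symbol rule, likewise gave 0 of 17, with differences between -0.28 and 0.69. CLSTN1, a calsyntenin gene, stood at 7.01 in SUDHL6, against 6.33 in HT, and CDHR4 at 5.11 in SUDHL6, against 4.70 in HT. The flamingo cadherin genes CELSR2 (4.63 in SUDHL6, against 4.52 in HT) and CELSR3 (4.62 in SUDHL6, against 4.55 in HT) lay above the dim level with gaps of at most 0.12.

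**Figure D3:**
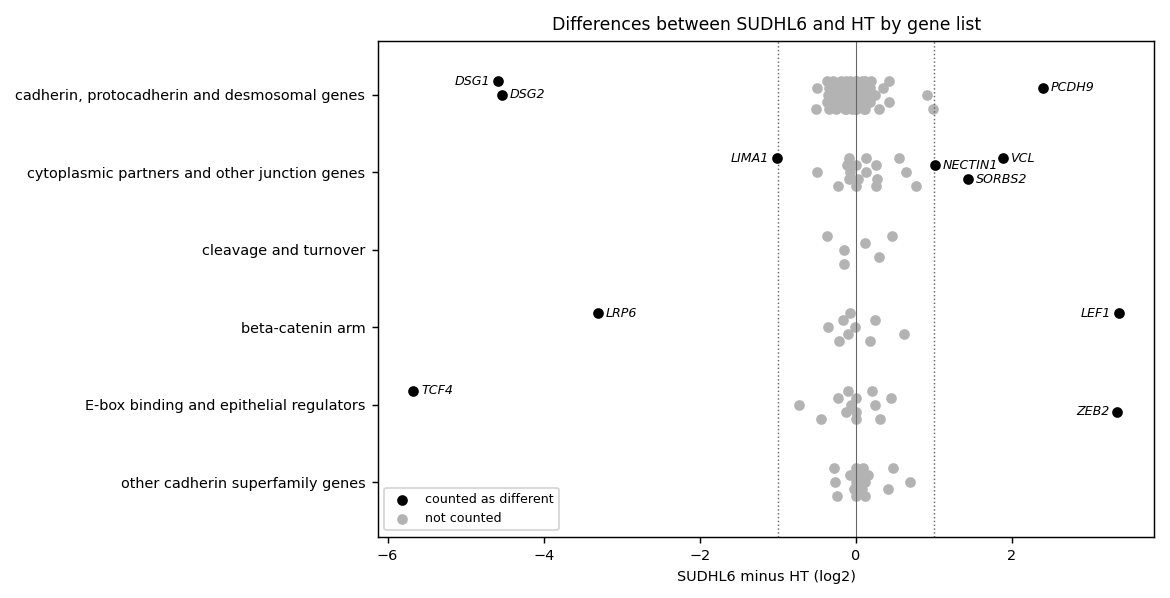
SUDHL6 minus HT (log2) for each gene with a value, 1 row for the family and 1 for each partner or regulator list, with dotted lines at -1 and 1. Black points, labelled by gene, were counted as different and grey points were not. DSG1 and DSG2 at -4.59 and -4.53 and PCDH9 at 2.39 stand outside the other 56 members, and TCF4, LRP6, LEF1, ZEB2 and VCL lie furthest out among the partner and regulator lists drawn.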

How the data were processed

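RNA levels were measured on 1 exon array for SUDHL6 and 1 for HT. The authors deposited log2 values for 22011 probe sets. The submitters' processing notes name RMA and Affymetrix Expression Console, and the log2 scale is taken from RMA and the range of the values. The sources used here give no version, setting or genome build. RMA is known to compress differences between dim genes, and no detection calls were used.

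Genes were named from GEO's platform annotation (14432 probe sets with 1 gene, 2408 with several, 5171 unnamed here). RefSeq gene numbers gave current symbols (GRCh38.p14) and matched all 59 members. Each gene took its probe set with the highest mean, which gave 14232 genes. Promoter windows come from RefSeq. PCDH11X and PCDH11Y, which share probe sets, are not reported here.

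With 1 array per line no test was possible. A gene was different at a log2 difference, SUDHL6 minus HT, of at least 1 with the higher value at or above its line's dim level. A fold whose lower value was dim was taken against the dim level of that line and is written "at least". No fold is given where this came to less than 1. Named genes were the members counted as different, all desmosomal and catenin members, the 3 with the highest mean in each other group, those next to a threshold, and up to 4 genes of each other list. CDH2, CDH11, PERP, PPL, the neighbours and some further genes of the other lists were chosen after their values were seen. Members and lists were chosen with earlier results of these data known. The counting was tested on simulated data. Scripts used Python 3.11.15, pandas 2.3.3 and statsmodels 0.14.6.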

Additional observations from a re-analysis of the deposited data

How the results depend on the processing

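No paired analysis was possible because each line has 1 array, and no array could be left out. A value was taken as unmoved where it stayed within the SD of the olfactory receptor differences (0.626), divided by the root of the number of genes for medians, and a count where it stayed within 1.5 times. Of 418 recomputed values, 18 moved and none changed the side of DSG1, DSG2 or PCDH9. Many of the 418 could not move. Each member had 1 probe set, so the choice of probe set left its value as it was. A dim level from another percentile or other genes does not enter a difference. Small differences could change sign and still be taken as unmoved, as for CDH26 (0.10, and -0.30 at the lowest). The count of 3 members became 5 after loess. Members higher in SUDHL6 numbered 2 after quantile normalization, 3 after loess and 0 with the dim level of keratin-associated protein genes, which 4 members reached in place of 13. Those higher in HT stayed at 2 under all alternatives run. With values raised to the dim level, DSG1 was at -3.23, DSG2 at -2.79 and PCDH9 at 1.72, and the medians of type II cadherins and of both protocadherin groups were -0.30, the value that raising gives to a gene dim in both lines. With probe sets naming several genes, the catenin median was 0.00 against 0.45, and that of clustered protocadherins 0.13. The median of the neighbours of the desmosomal cadherins was 0.029 with 5 on each side and 0.080 over the nearest 10 genes on each side at or above the dim level, a set drawn anew. The 8 partner and regulator genes became 5 with the keratin-associated level, 5 at a difference of 1.5 and 4 at 2. The partner alternatives were chosen after seeing the data. By the rule used, 46 of 59 members did not reach the dim level, though CDH3 and CDH23 lay slightly above it in SUDHL6. Dim values cannot show whether a gene was off or differed slightly.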
